A study of Mus musculus with 16 samples.

Results

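The Hox genes are 39 genes in 4 clusters, HoxA, HoxB, HoxC and HoxD, each numbered from 1 at the anterior end to 13 at the posterior end, and genes with the same number in different clusters are paralogs. All symbols made of Hox, a cluster letter and a number were taken, which gave 39 of the 24421 genes in the count tables, and 38 of them are described here. Hox genes encode homeodomain transcription factors that give cells their position along the head-to-tail axis. Paralogs with low numbers are switched on first and reach farthest forward, into the segments of the hindbrain (rhombomeres) and the neural crest of the pharyngeal arches behind the first, while higher numbers begin progressively farther back in the neck, trunk and tail. The forebrain, the midbrain and the neural crest of the first arch form without Hox expression, so the Hox genes read in a piece of head tissue also record how far back that piece was cut.

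The libraries came from mouse embryos at embryonic day 8.5, the third generation (F3) kept on a diet with folic acid at 2 ppm (called moderate) or 10 ppm (called enriched). On each diet 4 wild-type embryo samples and 4 homozygous for a null allele of Ift88 were sequenced as TruSeq RNA libraries, 16 in all, and the labels give both sexes. IFT88 is a subunit of the intraflagellar transport machinery that builds the primary cilium, the antenna through which cells receive Hedgehog signals. The tissue is labelled as running between the first pharyngeal arch and a level slightly above the otic vesicle, and no source used here gives strain, litter or pooling. The p-values therefore measure the spread between these samples, and in whole tissue fewer cells of a type and less RNA per cell cannot be told apart.

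Depth ranged from 19249433 to 44267434 counts per library. A gene with 0 counts in a library could have been present at up to 0.0680 to 0.159 CPM (counts-per-million, scaled by edgeR's TMM factors), the level of 3 counts, and this limit covers counting error only. Ift88 itself, at chr14:57424062-57517936 (mm10), was lower in each mutant library than in each wild-type library, with an average log2 fold change of -2.10 ± 0.24 (SE) over the diets and an adjusted p of 1.55e-05 (edgeR quasi-likelihood test, Benjamini-Hochberg). For 3 libraries (moderate wild type replicate 2 and moderate mutant replicates 1 and 2) Xist and the Y-linked genes went against the labelled sex. Moderate mutant replicate 3 stood apart from the other 15 libraries in several Hox genes and some mesodermal genes. Results that rest on this library are given with and without it.

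Hox reads were scarce in this tissue. The 38 genes together had 2601 counts among 444580504, or 5.85 CPM of the pooled total, with between 40 and 518 counts in a library and between 8 and 17 genes detected in each. Over all 16 libraries, 9 members had no count (Hoxa4, Hoxa6, Hoxc10, Hoxc11, Hoxd11, Hoxc12, Hoxd12, Hoxa13 and Hoxb13), 17 had 1 to 10 counts and 12 had more than 10. A count of 0 over all libraries allows a level of up to 0.00674 CPM. Only 9 members reached 10 counts in any library, and 4 (Hoxa2, Hoxb2, Hoxb3 and Hoxb4) did so in 4 or more libraries and entered the genome-wide tests; the other 34 did not.

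**Figure D1:**
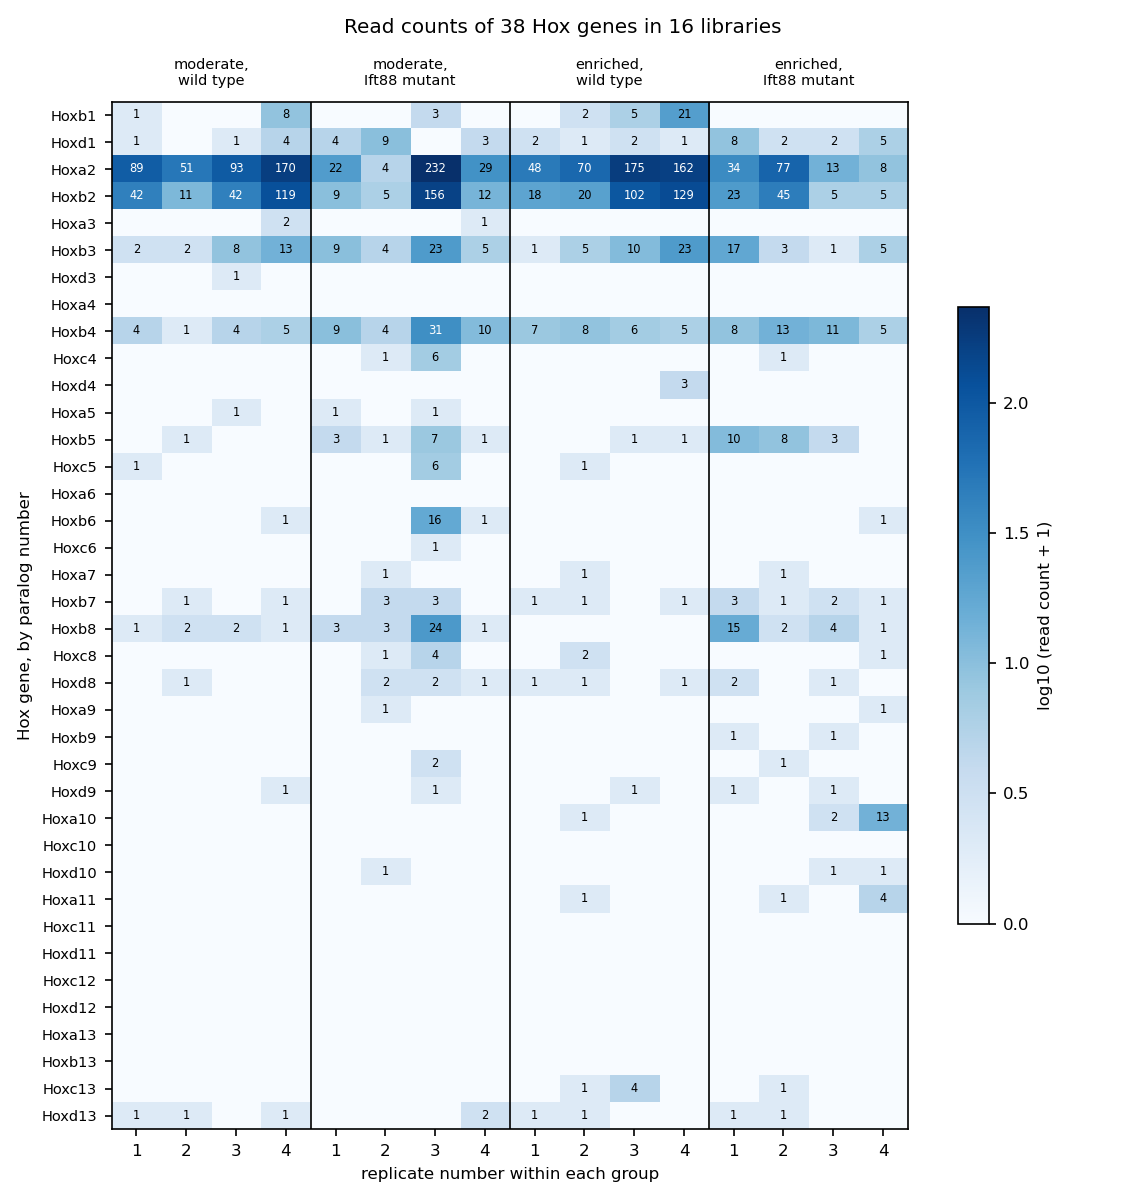
Read counts of the 38 Hox genes (rows, ordered by paralog number) in the 16 libraries (columns, replicate numbers within the 4 groups). Shade gives log10 of the count plus 1, the number in each cell is the count, and an empty cell is a count of 0; the rows of Hoxa2 and Hoxb2 carry most of the signal, and the column of moderate mutant replicate 3 has the highest count of Hoxb4, Hoxb6 and Hoxb8.

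Paralog group 2 carried most of the reads. Hoxa2 gives the second pharyngeal arch its identity, and Hoxb2 acts in the hindbrain segments behind it. Together they held 2020 of the 2601 Hox counts, or 77.7% of the pooled reads. Of these, 1341 were in the wild type and 679 in the mutants, whereas paralog 4 had 43 and 99. Moderate mutant replicate 3 alone held 388 of the 679 and 37 of the 99. The pooled share thus averages over unlike libraries and does not describe either genotype alone. In paralog 1, Hoxb1 and Hoxd1 held 85 counts; paralog 3 held 135, paralog 4 held 142 and paralog 8 held 79. Paralogs 5, 6, 7 and 9 held 47, 20, 21 and 12, paralogs 10, 11 and 13 held 19, 6 and 15, and paralog 12 held 0. By cluster, 1310 counts fell in HoxA (Hoxa2 to Hoxa13, chr6:52162417-52260880, mm10, as are all gene positions here), 1179 in HoxB (chr11:96194316-96368256), 78 in HoxD (chr2:74668310-74765142) and 34 in HoxC (chr15:102921103-103036852), and 19 of the 34 HoxC counts were in moderate mutant replicate 3.

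Per kilobase of exon, the mean level over the 16 libraries was 1.56 CPM per kb for Hoxa2 (SD 1.14) and 0.438 for Hoxb2 (SD 0.405). Next came Hoxb4 at 0.117 (SD 0.0849), Hoxb3 at 0.0618 (SD 0.0460), Hoxd1 at 0.0533 (SD 0.0483) and Hoxb8 at 0.0448 (SD 0.0670). Below these were Hoxb1 at 0.0323, Hoxb5 at 0.0275, Hoxb7 at 0.0264, Hoxb6 at 0.0177, Hoxa10 at 0.0112, Hoxd13 at 0.00895, Hoxa11 at 0.00599 and Hoxd9 at 0.00464 CPM per kb. Hoxa2 was above Hoxb2 on this scale in 16 of 16 libraries. Hoxb2 was above Hoxb4 in 11, among them every wild-type library, and the libraries with the reverse order were all mutants. Hoxb3 was above Hoxd1 in 7. From Hoxb2 downward each mean lay within 1 SD of its neighbour over the 16 libraries, and from Hoxb4 downward the order is not resolved. Within HoxA the level dropped from Hoxa2 to 0.00366 CPM per kb at Hoxa5 and 0.000933 at Hoxa3, whereas in HoxB a low level continued from Hoxb3 to Hoxb8. Hoxa3 shares 13.3% of its exon bases with the antisense genes Hoxaas2 and Hoxaas3, and 52.9% of Hoxb3's exon bases lie under genes that are annotated but not in the count tables, so both values depend on how the counting treated overlaps.

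**Figure D2:**
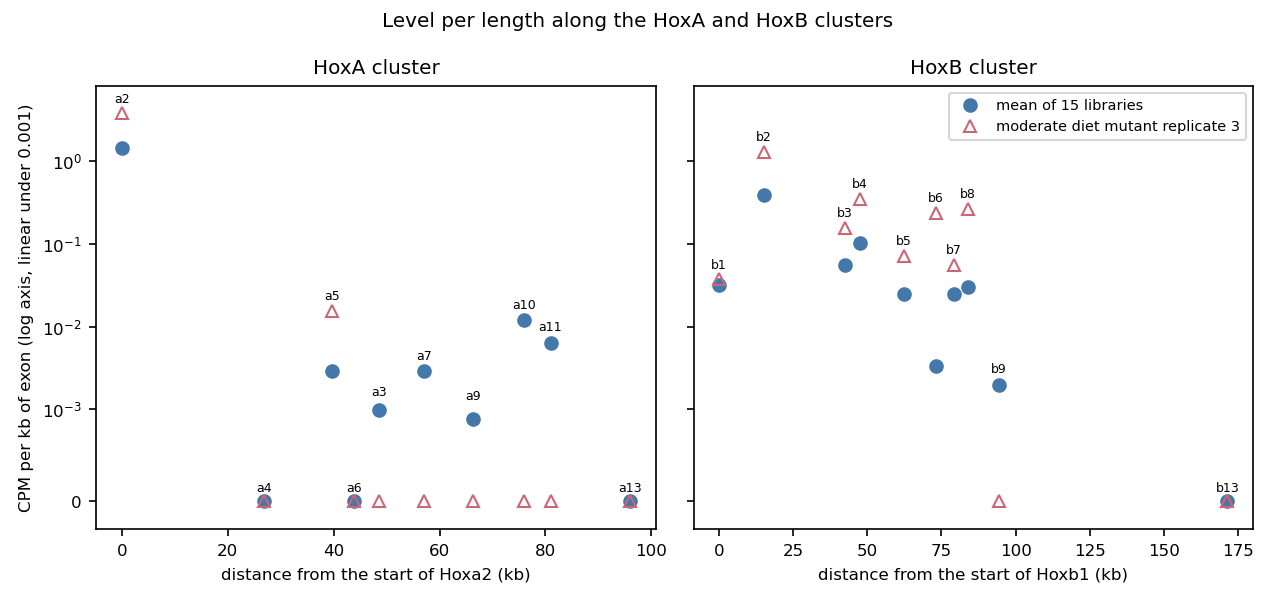
Level per length (CPM per kb of exon, symmetric log axis that is linear under 0.001) of the HoxA and HoxB genes against the distance of each annotated start from the start of Hoxa2 or Hoxb1 (kb). Filled circles are the mean of 15 libraries and open triangles are moderate mutant replicate 3; Hoxa3 is drawn beyond Hoxa5 because its longest annotated transcript starts there, and the triangles of Hoxb3 to Hoxb8 all lie above the circles.

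DNA immediately before the start of 4 members is shown because the values below turn on them: Hoxa2 for its low level in most mutant libraries, Hoxb1 for its absence on 1 side of the comparison, and Hoxb4 and Hoxb8 as the more posterior members with the highest levels. Each window holds 250 bases before the annotated start, 5′ to 3′ on the gene's strand, from RefSeq (GRCm38.p6). Capitals mark matches on either strand to TGATNNAT, the core of the joint PBX and HOX recognition sequence, to AGGTCA, the unit repeated in retinoic acid receptor elements, and to CCAAT, the CCAAT box.
Hoxa2, chr6:52164832-52165081, minus strand: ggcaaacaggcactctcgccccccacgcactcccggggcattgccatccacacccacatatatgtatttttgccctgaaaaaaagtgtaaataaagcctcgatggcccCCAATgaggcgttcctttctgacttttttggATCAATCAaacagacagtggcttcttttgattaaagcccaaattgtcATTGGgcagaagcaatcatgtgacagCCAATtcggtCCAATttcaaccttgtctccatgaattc
Hoxb1, chr11:96365508-96365757, plus strand: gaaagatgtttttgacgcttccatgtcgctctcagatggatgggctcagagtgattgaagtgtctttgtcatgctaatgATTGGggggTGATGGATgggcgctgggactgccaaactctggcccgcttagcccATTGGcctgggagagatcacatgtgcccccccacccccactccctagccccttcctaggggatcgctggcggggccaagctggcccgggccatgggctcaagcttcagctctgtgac
Hoxb4, chr11:96318017-96318266, plus strand: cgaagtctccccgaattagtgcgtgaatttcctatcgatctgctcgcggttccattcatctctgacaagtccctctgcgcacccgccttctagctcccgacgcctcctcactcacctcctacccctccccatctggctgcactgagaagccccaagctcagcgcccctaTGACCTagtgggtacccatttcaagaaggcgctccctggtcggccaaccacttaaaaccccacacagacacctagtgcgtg
Hoxb8, chr11:96281655-96281904, plus strand: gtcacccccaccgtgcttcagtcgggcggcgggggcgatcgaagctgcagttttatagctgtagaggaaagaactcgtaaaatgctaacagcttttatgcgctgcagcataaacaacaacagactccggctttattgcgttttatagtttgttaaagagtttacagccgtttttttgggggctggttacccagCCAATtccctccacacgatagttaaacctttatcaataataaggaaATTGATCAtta
A TGATNNAT match lay 111 bases before the start of Hoxa2, 162 before that of Hoxb1 and 11 before that of Hoxb8, and none lay in the Hoxb4 window. Among 32851 RefSeq windows of this length, TGATNNAT was in 7.68%, AGGTCA in 14.0% and CCAAT in 33.9%, against 4, 6 and 14 of the 24 windows available for 22 Hox genes. In Hoxa2 there were 4 CCAAT boxes, at 142, 64, 38 and 28 bases before the start. Hoxb4 held the single AGGTCA match, 81 bases before its start. These are letter matches and not measured binding sites.

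Hoxa2 (chr6:52162417-52164831) gave the clearest picture of the hindbrain and arch signal. In the moderate wild type its level was 4.27, 2.47, 4.40 and 4.23 CPM in replicates 1 to 4, and in the enriched wild type 2.30, 2.81, 5.11 and 4.94 CPM. In the moderate mutants it was 0.752, 0.164, 6.65 and 1.16 CPM, and in the enriched mutants 0.770, 3.33, 0.689 and 0.271 CPM. Thus 6 of 8 mutant libraries lay below all 8 wild-type libraries, while moderate mutant replicate 3 was the highest of all 16 and enriched mutant replicate 2 lay inside the wild-type range. The wild-type libraries differed among themselves by up to 2.22-fold, and all 16 by 40.5-fold.

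Hoxb2 (chr11:96350525-96354012) ran the same course. It stood at 2.02, 0.533, 1.98 and 2.96 CPM in the moderate wild type and at 0.863, 0.804, 2.98 and 3.94 CPM in the enriched wild type. The moderate mutants had 0.307, 0.205, 4.47 and 0.480 CPM, and the enriched mutants 0.521, 1.95, 0.265 and 0.169 CPM. Again 6 of 8 mutant libraries lay below every wild-type library, and the same 2 mutant libraries were the exceptions. The 6 libraries with the most Hoxa2 were also the 6 with the most Hoxb2, although the genes lie on different chromosomes. Hoxaas2, a non-coding gene on the opposite strand just beside Hoxa2 (chr6:52165674-52169564), ranked 5 of these 6 libraries among its own top 6, and its 2 highest mutant libraries were replicate 3 of the moderate diet with 2.29 CPM and replicate 2 of the enriched diet with 2.16 CPM; the other 6 had 0.0342 CPM or less.

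Averaged over the diets, the fitted log2 difference between mutant and wild type was -1.17 ± 0.54 (SE) for Hoxa2, with an unadjusted p of 0.0452 and an adjusted p of 0.102, and -0.96 ± 0.64 for Hoxb2, with an adjusted p of 0.252 (edgeR, n = 8 and 8). Neither passed the threshold of 0.05 on the adjusted p. Taken by diet, Hoxa2 differed by -0.74 ± 0.73 under moderate folic acid (adjusted p = 0.591) and by -1.60 ± 0.78 under enriched folic acid (adjusted p = 0.128). Without moderate mutant replicate 3 the moderate-diet differences were -2.53 for Hoxa2 (adjusted p = 0.0146) and -2.64 for Hoxb2 (0.0383), both called, and Hoxa2 was called on the enriched diet (-1.51, 0.0428), as it was without enriched mutant replicate 2 (-2.88, 0.0322). Without the 3 libraries whose sex label was contradicted, the moderate-diet difference of Hoxa2 was 0.07 (adjusted p = 0.989). Moderate mutant replicates 1 and 2 were among these 3, which left replicate 4 (1.16 CPM) beside replicate 3 (6.65 CPM). Over all genes, that refit called 105 of 14455 on the moderate diet, against 1106 of 14514 in the main fit. The part of the sex labels in the value of 0.07 was not tested. In the average both genes were called without moderate mutant replicate 3, Hoxa2 at -2.02 with an adjusted p of 0.00140 and Hoxb2 at -2.01 with 0.00615, and without enriched mutant replicate 2 Hoxa2 was called at -1.85 with 0.0223; over its 25 alternative settings the adjusted p of Hoxa2 ran from 0.00140 to 0.292. The biological coefficient of variation, the spread between libraries beyond counting error, was 0.738 for Hoxa2 and 0.832 for Hoxb2 against a median of 0.119 over all genes tested, and 99.7% of genes of like level had a lower one than each of them.

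**Figure D3:**
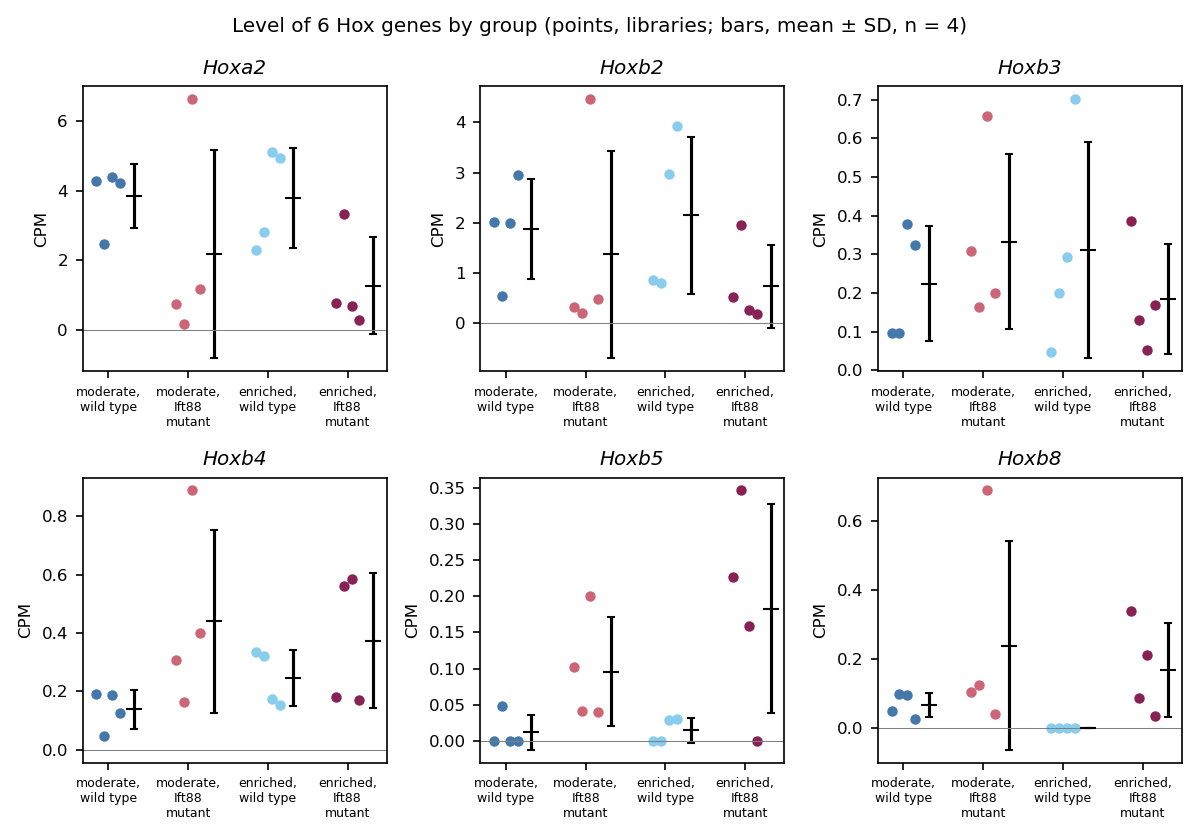
Level in CPM (linear axes that differ between panels) of 6 Hox genes in the 4 groups; points are libraries and bars are the group mean ± SD (n = 4). For Hoxa2 and Hoxb2, 1 mutant library on each diet sits within or above the wild-type points and the other 6 mutant libraries sit below them; for Hoxb5 and Hoxb8 the wild-type points lie at or near 0.

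Hoxb3, a gene of the caudal hindbrain, had 2, 2, 8 and 13 counts in the moderate wild type, 9, 4, 23 and 5 in the moderate mutants, 1, 5, 10 and 23 in the enriched wild type and 17, 3, 1 and 5 in the enriched mutants, with an averaged difference of -0.02 ± 0.48 (adjusted p = 0.978). Hoxd1 had 12 counts in the 8 wild-type libraries and 33 in the 8 mutants, and 6 mutant libraries lay above all wild-type ones.

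Hoxb1 (chr11:96365752-96368256), which marks and specifies the fourth rhombomere, was seen in few libraries. Its counts were 1, 0, 0 and 8 in the moderate wild type and 0, 2, 5 and 21 in the enriched wild type, against 0, 0, 3 and 0 in the moderate mutants and 0 in all 4 enriched mutants. The enriched mutants were thus at least 9.57-fold lower than the enriched wild type, taking 3 counts over the group as the limit. Of its 40 counts 21 came from enriched wild type replicate 4, and without that library the bound was 3.37-fold. The gene had too few reads for the main fit, and its values in a fit without a filter on low counts are given with those of Hoxb5 and Hoxb8 below.

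Paralogs 4 to 8, which begin farther back than paralogs 1 to 3, were higher in many mutant libraries. Hoxb4 (chr11:96318267-96321638) was the only one tested in the main fit. It reached 10 counts in moderate mutant replicates 3 and 4 and enriched mutant replicates 2 and 3, and in no wild-type library. Hoxb4 thus entered the test only through mutant libraries, which leans its result toward a higher level in mutants. It was at 0.192, 0.0484, 0.189 and 0.124 CPM in the moderate wild type and 0.307, 0.164, 0.888 and 0.400 CPM in the moderate mutants. The enriched wild type had 0.335, 0.322, 0.175 and 0.153 CPM and the enriched mutants 0.181, 0.563, 0.583 and 0.169 CPM. On each diet the genotypes overlapped, and 4 of 8 mutant libraries lay above all wild-type libraries. Averaged over the diets the log2 difference was 1.09 ± 0.42 (unadjusted p = 0.0201, adjusted p = 0.0547), and over 20 alternative settings the adjusted p ran from 0.0265 to 0.104, under 0.05 in 4 of them. By diet the values were 1.70 ± 0.61 under moderate folic acid (adjusted p = 0.0969) and 0.48 ± 0.58 under enriched folic acid (adjusted p = 0.558). Without moderate mutant replicate 3 Hoxb4 fell below the count filter; in a fit without the filter that left this library out, added after seeing the data, its differences were 1.06 ± 0.61 on the moderate diet (adjusted p = 0.333; 1.71 with all libraries) and 0.81 ± 0.40 in the average (adjusted p = 0.150; 1.12 with all libraries).

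Hoxb5 had 3 counts in the 8 wild-type libraries and 33 in the 8 mutants. Its counts were 0, 1, 0 and 0 in the moderate wild type, 3, 1, 7 and 1 in the moderate mutants, 0, 0, 1 and 1 in the enriched wild type and 10, 8, 3 and 0 in the enriched mutants. Hoxb8 (chr11:96281905-96285315) had 1, 2, 2 and 1 counts in the moderate wild type, 3, 3, 24 and 1 in the moderate mutants, 0 in all 4 enriched wild-type libraries and 15, 2, 4 and 1 in the enriched mutants, which were at least 7.15-fold higher than the enriched wild type (limit of 3 counts over the group), or at least 3.68-fold without enriched mutant replicate 1. In each of the 2 genes 5 of 8 mutant libraries lay above all wild-type libraries.

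When the filter on low counts was dropped, 19708 genes and 29 members entered the fit, and 3 members were called both in the average over the diets and on the enriched diet, where 24.8% and 21.1% of all genes were called. Averaged over the diets, Hoxb8 rose by a log2 difference of 3.43 ± 0.85 (adjusted p = 0.00689) and Hoxb5 by 2.99 ± 0.80 (adjusted p = 0.00908), while Hoxb1 fell (adjusted p = 0.0321; 37 counts in wild type and 3 in mutants). Hoxb8 had 0 counts in the whole enriched wild type, so the size of its averaged difference and the SE depend on how the fit handles 0. On that diet only the lower bound given above is measured. The Hoxb5 and Hoxb8 calls in the average held when any 1 of the 16 libraries was left out, with adjusted p up to 0.0328 and 0.0244. The Hoxb1 call was lost in 5 of the 16 refits, among them the one without enriched wild type replicate 4, and its adjusted p there ran from 0.0146 to 0.328. On the enriched diet the calls of Hoxb1, Hoxb5 and Hoxb8 held in 12, 8 and 12 of the 16 refits, with adjusted p up to 0.0797, 0.239 and 0.0966. On the moderate diet the same fit called 0 of 29 members where 5.56% of all genes were called, with 6 at an unadjusted p under 0.05, which 18.4% of all genes reached.

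The remaining members of paralogs 5 to 8 were sparse. Hoxb6 had 16 counts in moderate mutant replicate 3 and at most 1 in each other library. Hoxb7 had 0 to 3 counts in each library, 5 in all wild-type and 13 in all mutant libraries. Hoxd8 had 0 to 2 counts, and Hoxa5, Hoxa7 and Hoxc6 had at most 1. Hoxc4, Hoxc5 and Hoxc8 reached 6, 6 and 4 counts in moderate mutant replicate 3 and at most 2 elsewhere. In lower paralogs, Hoxd3 had 1 count in all and Hoxd4 had 3, all in enriched wild type replicate 4.

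Paralogs 9 to 13, the genes of trunk and tail, were at or near 0 in nearly all libraries. Hoxd9 had 1 count in each of 5 libraries and none in the others, and Hoxa9, Hoxb9, Hoxc9 and Hoxd10 had 2 or 3 counts in all. Hoxd13 had 0 to 2 counts and Hoxc13 had 4 in enriched wild type replicate 3, 1 in replicate 2 of that group and 1 in enriched mutant replicate 2. The exception was Hoxa10, with 13 counts in enriched mutant replicate 4, 2 in replicate 3 of that group and 1 in enriched wild type replicate 2. Hoxa11 had 4 counts in enriched mutant replicate 4 and 1 in enriched mutant replicate 2 and in enriched wild type replicate 2, and 35.0% of its exon bases lie under the antisense gene Hoxa11os, which had 3 counts in the same mutant library. Besides limbs and the trunk, Hoxa10 and Hoxa11 are well known from the uterine lining. In enriched mutant replicate 4, genes of decidua and yolk sac also had reads: Prl8a2, a decidual prolactin relative, had 102 counts, Tdo2 29 (at most 6 in the others) and Afp 1703 (1 to 321 in the others). Enriched mutant replicate 3 had 3557 Prl8a2 counts with 2 of Hoxa10, moderate wild type replicate 2 had 49 Prl8a2 counts with none of Hoxa10, and the other 13 libraries had at most 12 Prl8a2 counts; the part of such tissue in the Hoxa10 reads was not tested.

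Summed by paralog class, the mutant means lay below the wild-type means for paralogs 1 to 3 and above them for paralogs 4 to 8, with overlap between libraries in both. Paralogs 1 to 3 summed to 6.07 ± 2.07 CPM (SD, n = 4) in the moderate wild type and 6.52 ± 3.42 in the enriched wild type, and to 4.07 ± 5.21 in the moderate mutants and 2.31 ± 2.17 in the enriched mutants. Without its replicate 3 the moderate mutant mean was 1.47 CPM. Paralogs 4 to 8 summed to 0.277 ± 0.0556 CPM in the moderate wild type and 0.384 ± 0.151 in the enriched wild type, against 1.16 ± 1.15 in the moderate mutants (0.587 without replicate 3) and 0.851 ± 0.384 in the enriched mutants. For these sums no test was made, because they are scores over the members. Paralogs 9 to 13 summed to between 0 and 0.161 CPM in the wild type, between 0 and 0.0859 in the moderate mutants and between 0.0680 and 0.644 in the enriched mutants.

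**Figure D4:**
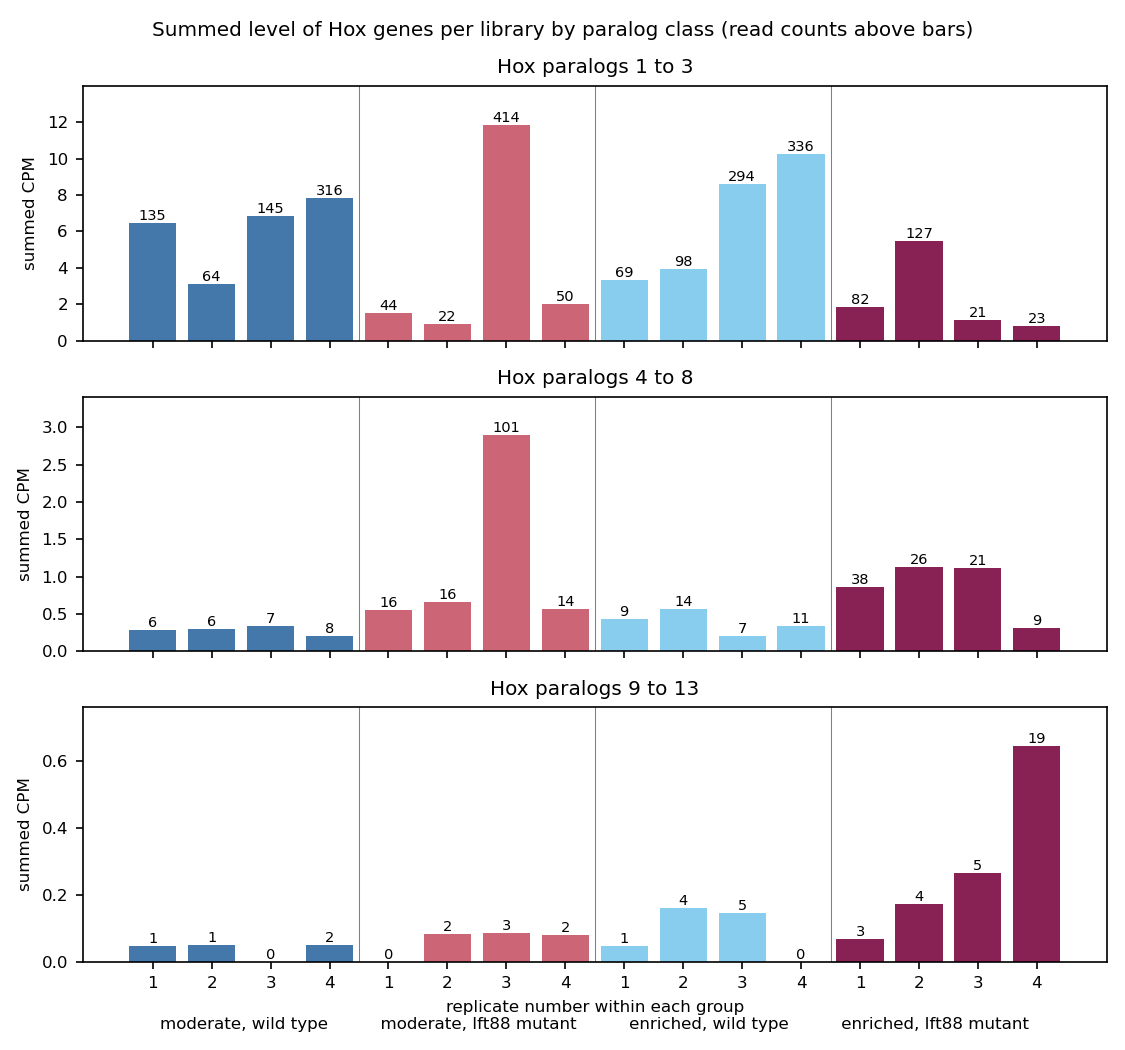
Summed level in CPM (linear axes from 0 that differ between panels) of Hox paralogs 1 to 3, 4 to 8 and 9 to 13 in each library, with the read count above each bar. The wild-type bars of paralogs 1 to 3 lie between 3.10 and 10.3 CPM and 6 mutant bars lie at 2.00 CPM or less; moderate mutant replicate 3 has the tallest bars of paralogs 1 to 3 and 4 to 8, and enriched mutant replicate 4 that of paralogs 9 to 13.

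Read as a gauge of the cut, no library reached beyond paralog 2 at a level of 1 CPM. In 11 libraries the highest paralog with a member at 1 CPM or more was 2, through Hoxa2 in all 11 and Hoxb2 in 7. In the other 5, all mutants (moderate replicates 1 and 2 and enriched replicates 1, 3 and 4), no member reached 1 CPM. The position of the cut and an effect of genotype on Hox levels cannot be told apart here, and the part of each was not tested. At the lower bar of 10 counts, the wild-type libraries reached paralog 2 or 3 (Hoxb3 in 3 of them). This bar is not scaled for depth. Those 3 were the deepest wild-type libraries, and enriched mutant replicate 1 was the deepest library of all. Among the mutants, moderate replicate 1 reached paralog 2, moderate replicate 2 had no member at 10 counts, moderate replicate 4 and enriched replicates 2 and 3 reached paralog 4 with Hoxb4, and moderate replicate 3 and enriched replicate 1 reached paralog 8 with Hoxb8. Enriched mutant replicate 4 had Hoxa10 as its single member at 10 counts.

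Markers of neighbouring head regions put these levels in context. Otx2, the defining gene of forebrain and midbrain, was read at 126 to 191 CPM. Pax6 was at 83.4 to 116 and Six3 at 39.5 to 69.3 CPM, so these genes were abundant in every library. Of the rhombomere genes, Egr2, which defines the third and the fifth, was at 0.246 to 2.79 CPM. Oc90 of the otic vesicle had at most 3 counts in a library. Of the tailbud genes, Cdx4 and Msgn1 had at most 1 count in a library, whereas T, the Brachyury gene of the primitive streak and notochord, was at 0.169 to 0.995 CPM, Tbx6 at 0.0968 to 0.955 and Cdx1 at 0.200 to 1.73 CPM, with reads in all 16 libraries.

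Moderate mutant replicate 3 combined the most anterior and the more posterior Hox genes. It held 518 Hox counts, 388 of them in paralog 2, and 101 in paralogs 4 to 8 against 6 to 38 in each other library. Its counts included 31 of Hoxb4, 24 of Hoxb8, 16 of Hoxb6, 7 of Hoxb5 and 6 each of Hoxc4 and Hoxc5. The same library had 491 counts of Hand1, a lateral plate and heart factor, or 14.1 CPM against 0.0305 to 0.902 CPM in the others. Wnt2 was at 3.38 CPM (0.351 or less in the others), Hand2 at 63 counts (17 or fewer) and Postn at 118 CPM (8.40 to 15.9 in the others). Of the tailbud genes, Cdx2 was highest there, with 5 counts (at most 1 in the others), while Cdx1 was at 0.688 CPM within the 0.200 to 1.73 of the others and Tbx6 at 0.201 CPM within 0.0968 to 0.955. The other genes of the cardiac and lateral plate list were mixed. Gata4 and Gata6 were above all wild-type libraries in all 8 mutants, Tnnt2 in 4, and Isl1 and Nppa in 1 each. Myl7, Myh6, Myh7, Actc1 and Wnt2b had 0 mutant libraries above all wild-type libraries, and Tbx5 was below all wild-type libraries in all 8 mutants. Whether lateral plate tissue accounts for the Hox reads of moderate mutant replicate 3 was not tested.

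**Figure D5:**
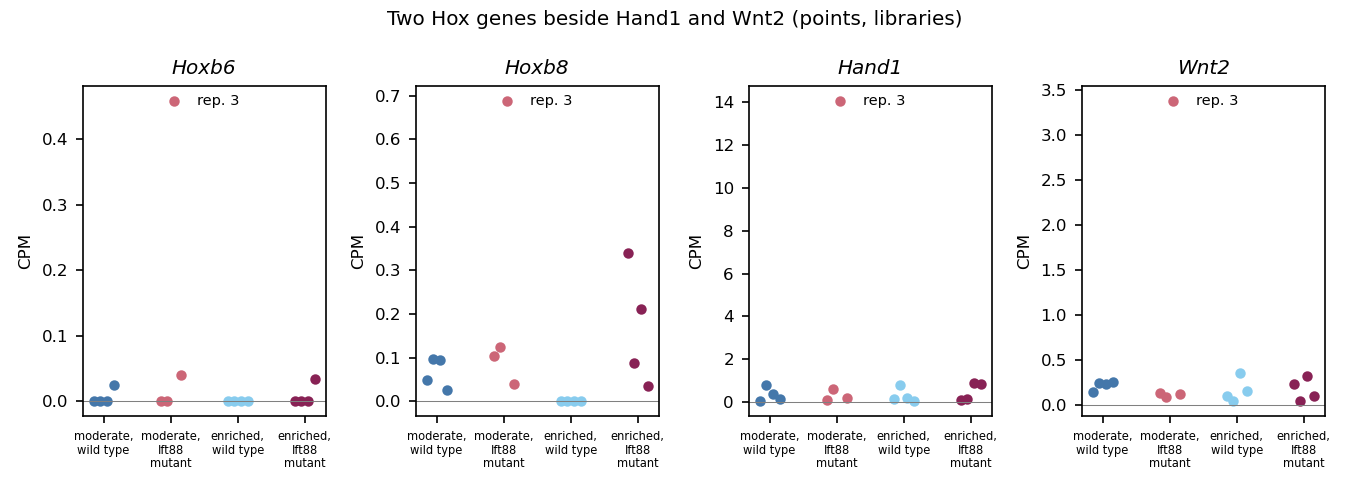
Level in CPM (linear axes that differ between panels) of Hoxb6, Hoxb8, Hand1 and Wnt2 in the 4 groups; each point is 1 library. Moderate mutant replicate 3 (labelled rep. 3) is the highest point in all 4 panels, at 0.458, 0.688, 14.1 and 3.38 CPM.

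Over the whole table, mutant and wild type differed in 7.62% of the 14514 genes tested on the moderate diet (4.79% higher in mutants and 2.83% lower), 31.2% on the enriched diet (14.4% and 16.8%) and 35.8% in the average (17.4% and 18.5%; edgeR, adjusted p under 0.05). Of the 4 Hox genes tested, 0 passed in each of these 3 comparisons. At an unadjusted p under 0.05 there were 1 (Hoxb4) on the moderate diet, 0 on the enriched diet and 2 (Hoxa2 and Hoxb4) in the average, where 23.4%, 42.9% and 45.4% of all genes reached it. Hoxb4 had passed the count filter only through mutant libraries. DESeq2 also called 0 of the 4 in all 3 comparisons, and limma-voom called 0, 1 and 1, each time Hoxa2. The median log2 difference of the 4 was 0.09, -1.07 and -0.49, beside -0.01, -0.01 and -0.01 over all genes tested. Of the 4 tested, 0 separated the 8 mutant libraries from the 8 wild-type libraries without overlap, which 4.44% of all genes tested did.

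Diet left no detectable mark on these genes. Between enriched and moderate wild type, and between enriched and moderate mutants, 0 of 4 members passed, as did 0% of all genes tested, and 0 members reached an unadjusted p under 0.05 (2.44% and 10.8% of all genes did). DESeq2 and limma-voom called 0 members in both. In the wild type the log2 differences of Hoxa2, Hoxb2 and Hoxb4 were -0.13 ± 0.78, -0.02 ± 0.93 and 0.89 ± 0.71, and in the mutants -0.99 ± 0.84, -1.18 ± 0.99 and -0.34 ± 0.53 (SE). With errors of this size a 2-fold difference was not detectable. Without moderate mutant replicate 3 the mutant differences of Hoxa2 and Hoxb2 were 0.68 and 0.92. The interaction of diet and genotype was called for 0 members and for 0% of all genes, with 0 members and 9.65% of all genes at an unadjusted p under 0.05, and by DESeq2 and limma-voom for 0 members.

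Lists of other genes were counted in the average over the diets, where 17.4% of all genes tested were higher and 18.5% lower in the mutants. Most partners of HOX proteins did not pass the test. MEIS, PBX and PKNOX proteins are homeodomain cofactors that bind DNA together with HOX factors, and all 9 of their genes were tested. In the average 0 were higher and 1 lower in the mutants: Meis3 fell by 0.29 on the log2 scale (SE 0.07, adjusted p = 0.00346). Pknox1 had a difference of -0.22 ± 0.10 (adjusted p = 0.0858) and Pbx2 of -0.08 ± 0.04 (adjusted p = 0.173). Their levels were far above those of the Hox genes themselves: Pbx2 was read at 270 to 337 CPM and Meis2 at 99.6 to 135 CPM. The median of the list was -0.02, beside -0.01 over all genes.

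Of the hindbrain segment factors described here, 13 were tested, and among these 4 were higher and 0 lower in the mutants, with a median of 0.09 beside -0.01 over all genes. Irx3 rose by 0.38 ± 0.06 (adjusted p = 0.000200), Gata3 by 0.47 ± 0.13 (adjusted p = 0.00980) and Epha2, an Eph receptor, by 0.28 ± 0.08 (adjusted p = 0.0166). Egr2 did not pass, with -0.43 ± 0.47.

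Retinoic acid switches on the anterior Hox genes, and its degrading CYP26 enzymes keep it out of the head. Of 16 genes of its supply, breakdown and receptors, 3 were higher and 5 lower in the mutants, with a median of -0.08. Stra6, the retinol importer, fell by 0.46 (SE 0.07, adjusted p = 0.000258) and the degrading enzyme Cyp26b1 by 1.07 (SE 0.23, adjusted p = 0.00211), while the receptor Rarb rose by 0.61 ± 0.13 (adjusted p = 0.00250). Cyp26c1, an enzyme of the anterior hindbrain, had a difference of -0.77 ± 0.34 and did not pass (adjusted p = 0.0889); it was at 31.8 CPM in moderate mutant replicate 3 and at 4.14 to 7.65 CPM in the other moderate mutants.

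CDX factors, the tailbud and the paraxial mesoderm stand for the posterior inputs to the clusters. Of 13 tested genes of 20, 3 were higher and 2 lower in the mutants, with a median of -0.05. Fgf8, which is also made at the border of midbrain and hindbrain, rose by 0.69 ± 0.10 (adjusted p = 0.000115) and Tcf15, a factor of the paraxial mesoderm, by 0.92 ± 0.23 (adjusted p = 0.00546). Cdx1, a direct activator of Hox genes, fell by 1.30 (SE 0.35, adjusted p = 0.00928) and was at 0.305 to 1.73 CPM in the wild type and 0.200 to 1.15 CPM in the mutants. Tbx6, a paraxial mesoderm factor, rose by 1.38 ± 0.37 on the enriched diet (adjusted p = 0.0109) and did not pass on the moderate diet (-0.22 ± 0.43) or in the average. Among the members called in the unfiltered average, Hoxb1 fell, as Cdx1 did, whereas Hoxb5 and Hoxb8 rose. Any part of Cdx1 in these differences was not tested.

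Chromatin regulators that keep the clusters silent or open were all 25 expressed well enough to test, with 5 higher, 4 lower and a median of 0.02. Cbx2, a Polycomb reader, fell by 0.44 (SE 0.06, adjusted p = 6.26e-05), Phc2, a Polycomb subunit, fell by 0.27 (SE 0.05, adjusted p = 0.000394) and Jarid2, a partner of the Polycomb methyltransferase, rose by 0.52 ± 0.09 (adjusted p = 0.000528).

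Around the clusters, 17 of 21 non-coding and antisense genes looked for were in the tables, and Hoxaas2 alone could be tested (-0.48 ± 0.91, adjusted p = 0.715). Halr1, a long non-coding RNA gene beyond the anterior end of HoxA that was singled out after its values were seen, was at 0.194 to 0.519 CPM in the wild type and 0.0339 to 0.164 CPM in the mutants, without overlap between the genotypes and with at most 17 counts in a library. Of the genes that flank the clusters, 10 of 14 were tested, with 2 higher and 2 lower and a median of -0.01. Skap1, beside HoxB, fell by 1.65 (SE 0.27, adjusted p = 0.000315), Hibadh, near HoxA, rose by 0.23 ± 0.06 (adjusted p = 0.00931) and Smug1, near HoxC, rose by 0.16 ± 0.05 (adjusted p = 0.0212).

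Lists of other head and mesodermal tissues held called genes in shares of 2 of 6 to 6 of 14, near the 35.8% of all genes. Rostral head genes had 4 higher and 2 lower of 14 (median 0.12, beside -0.01 over all genes), among them Emx2 (-1.20 ± 0.08, adjusted p = 1.44e-07), Lhx2 (-1.06 ± 0.15, adjusted p = 0.000104) and Pax2 (0.64 ± 0.11, adjusted p = 0.000328). Otic and arch genes had 3 higher and 2 lower of 14 (median 0.01), led by Dlx3 (0.73 ± 0.12, adjusted p = 0.000308), Tbx1 (-0.97 ± 0.17, adjusted p = 0.000542) and Pax8 (0.44 ± 0.11, adjusted p = 0.00597). Cardiac and lateral plate genes had 2 higher and 2 lower of 11 (median -0.11): Gata6 (1.16 ± 0.12, adjusted p = 4.85e-06) and Gata4 (3.07 ± 0.37, adjusted p = 2.39e-05) rose and Tbx5 fell (-2.14 ± 0.34, adjusted p = 0.000201). Erythroid genes had 0 higher and 2 lower of 6 (median -0.72), Klf1 (-1.50 ± 0.33, adjusted p = 0.00244) and Gata1 (-1.14 ± 0.32, adjusted p = 0.0107), with Hba-x at -0.77 ± 0.33 (adjusted p = 0.0802). Of the 5 sex-linked genes 0 passed (median 0.02). The part of these genes in the Hox values was not tested.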

How the data were processed

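Total RNA of 16 mouse embryo head samples was sequenced. The deposited values are read counts per gene: per the submitters' processing notes, the authors used FastQC 0.11.5, TopHat2 2.1.1, SAMtools 1.8, HTSeq 0.9.1 and DESeq2 1.22.2 with build mm10; the gene annotation, the strand setting and the treatment of multiply mapped reads are not given in the sources used here. HTSeq's summary lines were left out; reads in no gene were 13.7% to 17.0% and ambiguous reads 1.20% to 1.39% of the gene counts in each library. Genes that reached 10 counts in 4 or more libraries were tested with edgeR 4.0.16 (quasi-likelihood, TMM scaling, labelled sex as covariate; R 4.3.3), with Benjamini-Hochberg adjustment over all 14514; the SE is the log2 fold change over the root of its F. Alternatives used DESeq2 1.42.0, limma-voom (limma 3.58.1), other filters and scalings, and each library left out. Described in each library were members past the threshold, of which there were none, the member with the highest CPM per kb of each paralog number, and others the values turned on; for each list, the 3 genes of smallest p in the average. Prl8a2, Tdo2, Afp, Postn and Halr1 were named after their values were seen. The members and all lists were chosen with earlier results of these data known, and genes among them that are not reported here were left out of every count and sum over members or lists. Gene positions and exon lengths are from GENCODE vM21, where all 38 symbols matched. The test was checked on simulated counts.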

Additional observations from a re-analysis of the deposited data

Results flagged for a closer look

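The check took 44 sets of 4 libraries, each a gene or paralog class in 1 group with at least 10 counts in 1 library. In 14 of them a library stood apart from the other 3 of its group by Dixon's gap criterion. Chance alone meets it in about 1 of 20 sets only where sets are normal and independent. These sets hold low counts and overlap, as the sums of paralogs 1 to 3 contain Hoxa2 and Hoxb2. The 14 were therefore not weighed against that rate.

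Moderate mutant replicate 3 accounted for 9 of them. It was high for Hoxa2 (6.65 CPM, the others 0.164 to 1.16), Hoxb2 (4.47, the others 0.205 to 0.480), Hoxb6 (0.458, the others up to 0.0400) and Hoxb8 (0.688, the others 0.0400 to 0.123). Its sums were high for paralogs 1 to 3 (11.9 CPM, the others 0.902 to 2.00) and paralogs 4 to 8 (2.89, the others 0.547 to 0.656). Beside these, Hoxaas2 was at 2.29 CPM (the others up to 0.0342), Hand1 at 14.1 (the others 0.102 to 0.615) and Wnt2 at 3.38 (the others 0.0820 to 0.137).

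Enriched mutant replicate 2 was high for Hoxa2 (3.33 CPM, the others 0.271 to 0.770) and Hoxaas2 (2.16 CPM, the others up to 0.0227). Moderate wild type replicate 2 was low for Hoxa2 (2.47 CPM, the others 4.23 to 4.40) and for Ift88 (9.30 CPM, the others 19.9 to 20.9), and it is 1 of the 3 libraries whose sex-linked genes go against the label. Moderate wild type replicate 1 was low for Wnt2 (0.144 CPM, the others 0.236 to 0.249).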

How the results depend on the processing

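Of the 4 Hox genes tested, 0 were called in all 6 comparisons under edgeR. DESeq2, its size factors and sex read from the counts gave 0 as well. A filter of 1 CPM left 2 members to test in all 6, with 0 called. Fits of the groups compared alone left 2 or 3 in the 4 comparisons they allow, with 0 called. Leaving out the 3 libraries with a contradicted sex label, chosen after seeing the data, also gave 0. In that refit moderate mutant replicate 3 stood beside replicate 4 alone. The replicate block also gave 0; replicate numbers did not pair the samples, with correlations of deviations from -0.29 to 0.51 over 24 same-numbered pairs, 8 of them over 0.1, and 5 of 16 libraries closest to their own number. Limma-voom called 1 (Hoxa2) on the enriched diet and 1 in the average (-1.96, adjusted p = 0.00820). Dropping the filter called 3 in each of these. Without the sex covariate the average called 1 (Hoxb4, adjusted p = 0.0433), and at an adjusted p of 0.1 Hoxb4 made 1 on the moderate diet and 1 in the average. In these fits Hoxb4 passed the count filter only through mutant libraries.

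Leaving out 1 library at a time gave 0 to 2 calls on the moderate diet (2 without moderate mutant replicate 3), 0 to 1 on the enriched diet and 0 to 2 in the average. Over all genes, these refits called 538 to 2107, 3023 to 4872 and 4177 to 5563. The 2107 on the moderate diet and the 5563 in the average came without moderate mutant replicate 3, against 1106 and 5202 in the main fit. In the average, Hoxa2 was called without moderate mutant replicate 3 or enriched mutant replicate 2, and Hoxb4 without moderate mutant replicate 2 (adjusted p = 0.0265), enriched mutant replicate 1 (0.0277) or enriched mutant replicate 4 (0.0379). In the fits with no filter, refitted without each library after seeing the data, the averaged Hoxb1 call was lost without moderate wild type replicate 4 (adjusted p = 0.328), moderate mutant replicate 1 (0.0686), enriched wild type replicate 4 (0.0525) and enriched mutant replicates 1 (0.0539) and 2 (0.0533). The cause was not tested.

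Per kb of exon, paralogs 1 to 3 summed to 2.81 and 2.95 CPM per kb in the moderate and enriched wild type and to 1.79 and 1.04 in the mutants, and paralogs 4 to 8 to 0.113 and 0.153 in the wild type and 0.473 and 0.340 in the mutants, in the same directions as the sums of CPM. With 2601 Hox counts in all, 34 members were too shallow for the main test; Hoxb1, Hoxb5 and Hoxb8 among them were called in the fits with no filter, and no difference of the others was detectable at this depth.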
